A study of Mus musculus with 11 samples.

Results

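This account follows the genes of the DNA replication machinery and of deoxynucleotide supply through islet RNA-seq libraries of virgin and multiparous mice. The 46 genes were chosen by name, as known subunits and enzymes of S phase, out of 55536 genes in each table. The rule itself uses no measured value, but earlier results of these data were known when the genes were chosen. They comprise 9 genes of origin recognition and licensing, 7 of the MCM helicase family, 6 of helicase activation, 9 of the DNA polymerases, 6 of the sliding clamp and its loader, 5 of Okazaki fragment processing and single-strand binding, and 4 of nucleotide supply. All 46 were found in the tables under a single row each. The mice were wild type C57BL/6J females. Multipara mice were 9 weeks of age at entry and went through 3 pregnancies, and their islets were taken 3 weeks after they last gave birth. Virgin littermates served as controls. The insulin receptor antagonist S-961, a peptide, was injected into the peritoneum at 100 nmol/kg, 2 times a day, for 3 days. The groups were virgin with S-961 (3 libraries), multipara with S-961 (4 libraries), virgin without treatment (2 libraries) and multipara without treatment (2 libraries), and libraries are named below by the group and replicate number in their labels. Multipara S-961 4 lay within the range of the virgin S-961 libraries for 28 of the 46 genes, and for 61.1% of all genes. Its alpha cell and stromal markers were higher than in every virgin S-961 library. Neither observation checks a label, and no deleted gene or transgene does so. The parity labels of the S-961 libraries were thus not checked and remain uncertain. Every direction between virgin and multipara with S-961 given below rests on them, and an exchange of the virgin and multipara labels would turn it. Directions without treatment rest on the labels of the untreated libraries. The labels do not say how many mice gave islets to a library, so that p-values measure the spread between these libraries.

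A cell copies its DNA in an ordered series of steps. The origin recognition complex, Cdc6 and Cdt1 load the ring of Mcm2 to Mcm7 onto DNA in G1, Cdc45 and the GINS complex turn the ring into a moving helicase at the onset of S phase, and the polymerases, the clamp Pcna and the flap and ligation enzymes then build both strands from the deoxynucleotides that ribonucleotide reductase and thymidylate synthase supply. Many of these genes are transcribed under E2F factors as cells pass from G1 into S phase. β cells of adult islets rarely divide, and pregnancy and blockade of insulin signaling are both known as conditions in which they enter the cell cycle, which is the question the comparison of both parities with S-961 addresses.

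Total counts ran from 22028507 to 32234146 per library, and the replication genes together took between 0.0446% and 0.153% of them. Levels are in CPM, that is, counts per fixed library size after normalization by the trimmed mean of M-values (TMM) over all 11 libraries. The islet identity of the libraries was clear from *Ins1* and *Ins2*, which held 13.2% to 20.7% of counts with S-961 and 35.3% to 41.4% without. Libraries also differed in markers of other cells. The summed level of 10 acinar genes was 1771 to 12427 CPM with S-961 and 74.9 to 152 CPM without. With S-961 it was 5142, 6839 and 1771 CPM in virgin libraries and 12427, 11040, 8276 and 4461 CPM in multipara libraries, and all 10 genes were higher in multipara S-961 1 to 3 than in every virgin S-961 library. The 4 stromal genes summed to 48.6 to 55.5 CPM in virgin and 107 to 249.3 CPM in multipara libraries with S-961. The 4 alpha cell genes summed to 12575 to 13740 CPM in virgin and 14663 to 22212 CPM in multipara libraries with S-961, and each of the 4 alpha and 4 stromal genes was higher in all 4 multipara libraries than in every virgin one. Of the duct genes 3 of 4, and the 1 PP cell gene, were higher in multipara S-961 1 to 3. The exception was *Spp1*, at 70.6, 106 and 53.9 CPM there and 81.9 to 94.7 CPM in virgin S-961 libraries. The duct sum was 285, 383 and 264 CPM against 269 to 273 CPM. In replication genes, multipara S-961 4 stood apart from the other 3 of its group, and multipara untreated 1 from multipara untreated 2. Over all genes it was multipara S-961 3 that lay farthest from its group, with a chi-square per gene of 59.5, 116 and 87.95 against the other 3, while multipara S-961 4 was at 53.4 and 73.7 from multipara S-961 1 and 2. Virgin S-961 3 was at 53.9 and 59.1 from the other virgin S-961 libraries, which were at 8.90 from each other. In multipara untreated 1, the 6 lymphocyte, 5 macrophage and 3 red cell genes summed to 255, 747 and 1082 CPM, against 26.6 to 40.0, 165 to 190 and 86.1 to 224 CPM in the other 3 untreated libraries. In the lymphocyte list 2 values over all libraries were 0, and no marker of another list was at 0 in any library. Results that rest on these libraries are therefore given with and without them, and the part of acinar, stromal, alpha, duct, immune or red cell RNA in them was not tested.

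Replication genes were more variable between libraries than most genes. The ratio of the highest to the lowest library, on the log2 scale, had a median of 2.41 over the 46 genes and of 1.37 over the 17996 genes tested across all libraries. The median was widest for the MCM genes at 3.07 and for nucleotide supply at 2.93, and narrowest for origin recognition and licensing at 1.31. Multipara S-961 2 held the highest value of 34 of the 46 genes, and multipara S-961 1 of another 7. The mean log2 CPM of the 46 genes was 2.55, 2.65 and 2.48 in virgin S-961 libraries and 4.28, 4.53, 3.40 and 2.53 in multipara S-961 libraries. Without treatment it was 2.63 and 2.52 in virgin and 3.39 and 2.52 in multipara libraries. Multipara S-961 1, 2 and 3 and multipara untreated 1 were thus the libraries with raised replication genes, while multipara S-961 4 and multipara untreated 2 lay with the virgin libraries.

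**Figure D1:**
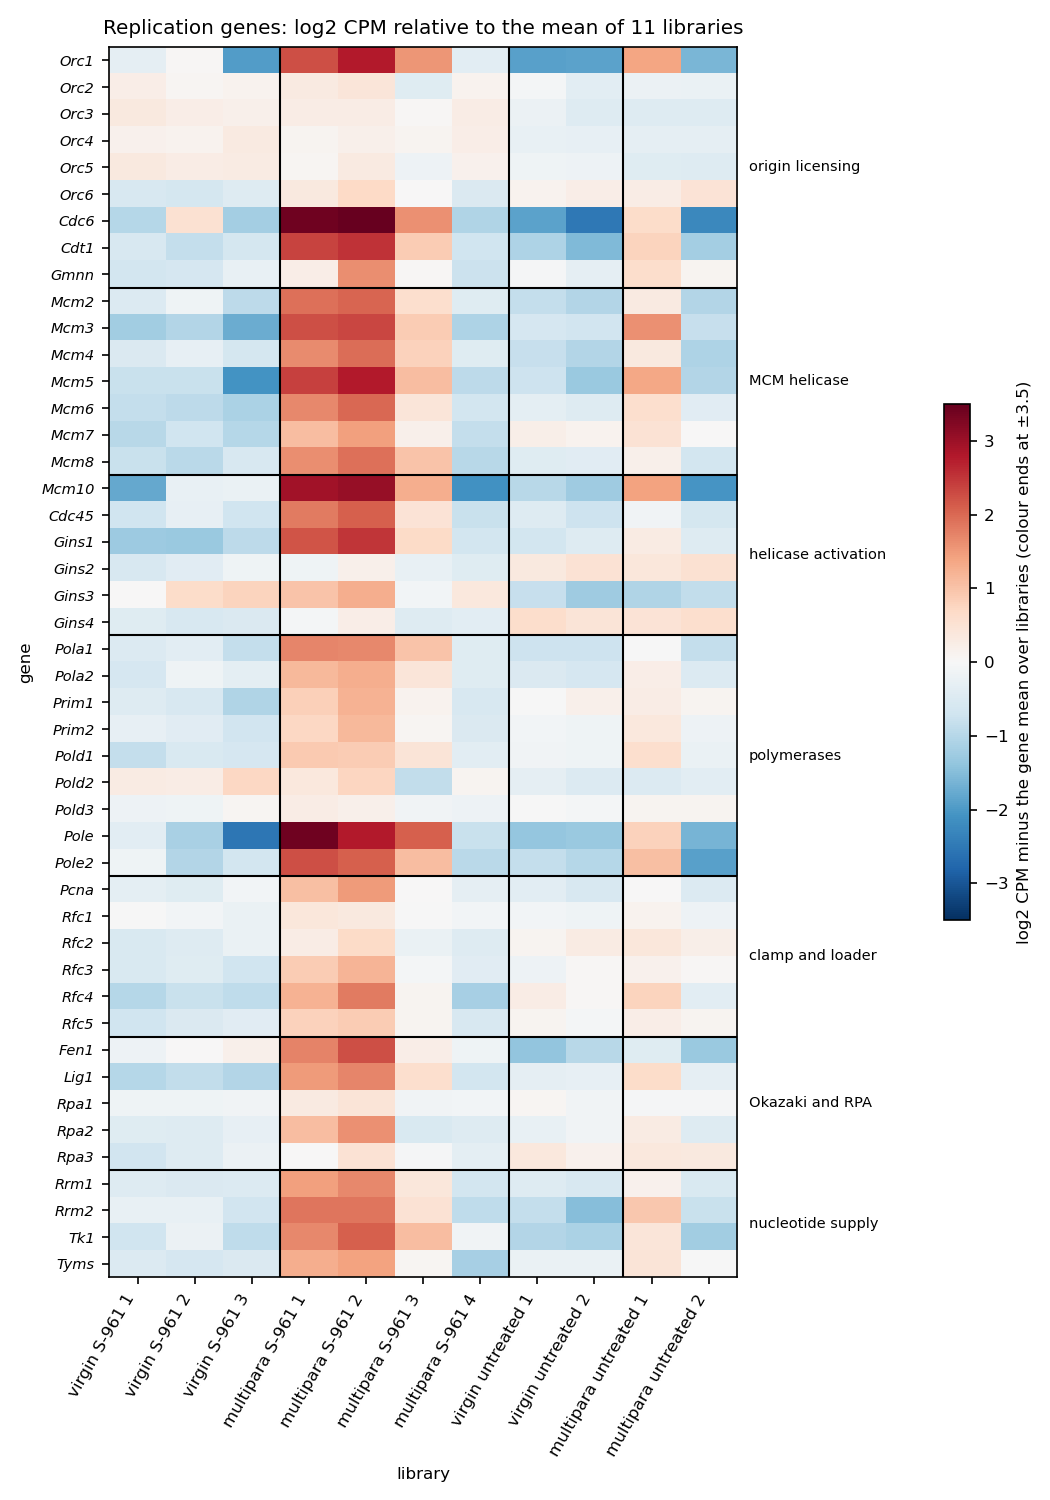
Each row is a replication gene and each column a library, and the colour is the log2 CPM of the gene minus its mean over the 11 libraries. Red columns are multipara S-961 1, 2 and 3 and, more weakly, multipara untreated 1, whereas *Orc2* to *Orc5*, *Pold3* and *Rfc1* vary little.

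With S-961, replication genes were higher in most multipara libraries than in virgin libraries, but no gene passed the test when all 7 libraries were used. Multipara libraries exceeded virgin ones by a median log2 fold change of 1.25 over the 46 genes and of 0.00352 over the 16784 genes tested, and 42 of the 46 genes had a positive value. The quasi-likelihood test of edgeR called none of the 46 genes at an adjusted p under 0.05, and 0% of all genes, with 0.315 as the lowest adjusted p among the 46. Before adjustment, 31 of the 46 genes were higher in multipara at p under 0.05, against 8.03% of all genes, and DESeq2 called 18 of the 46, all higher, against 2.2% of all genes. In all 4 multipara libraries, 7 genes exceeded every virgin library, namely *Tk1*, *Mcm6*, *Gins1*, *Rfc3*, *Pold1*, *Lig1* and *Rpa1*, against 5.2% of all genes. When multipara S-961 4 was set aside for this count, 34 of the 46 genes did so, against 13.8% of all genes. Multipara S-961 4 itself lay within the range of the virgin S-961 libraries for 28 of the 46 genes, and for 61.1% of all genes. In a bulk library, fewer cells in S phase and less RNA per cell cannot be told apart.

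Leaving out multipara S-961 4 changed the calls, while leaving out any other single S-961 library gave 0. In the fit without multipara S-961 4, 27 of the 46 genes rose in multipara mice and none fell, against 2.69% of all genes that rose, and the median log2 fold change was 1.53. By role, the genes that rose were 7 of 7 of the MCM family, 4 of 4 of nucleotide supply, 6 of 9 polymerase genes, 4 of 9 of origin recognition and licensing, 3 of 6 of helicase activation, 2 of 6 of the clamp and its loader, and 1 of 5 of Okazaki fragment processing and single-strand binding. The library stood apart in the very genes tested, and its exclusion is singled out here after its values had been seen. Adjusted p-values of this fit, here and below, therefore only describe the libraries kept and are no test of parity. A gene said to have risen in it had an adjusted p under 0.05 there, and none did with all 7 libraries. In multipara S-961 1 to 3 the higher genes move with the acinar, stromal and alpha markers named above, and with 3 of 4 duct genes. In multipara S-961 4 the alpha and stromal markers were higher than in virgin libraries. Its acinar sum of 4461 CPM lay within the virgin range of 1771 to 6839 CPM, and most replication genes were not higher either. The part of these cells was not tested. Markers of dividing cells moved with the replication genes as well. *Mki67*, a marker of proliferating cells, was at 3.44, 13.9 and 3.12 CPM in virgin and 95.4, 67.1, 43.0 and 3.95 CPM in multipara libraries with S-961, a direction that rests on the same uncertain labels.

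**Figure D2:**
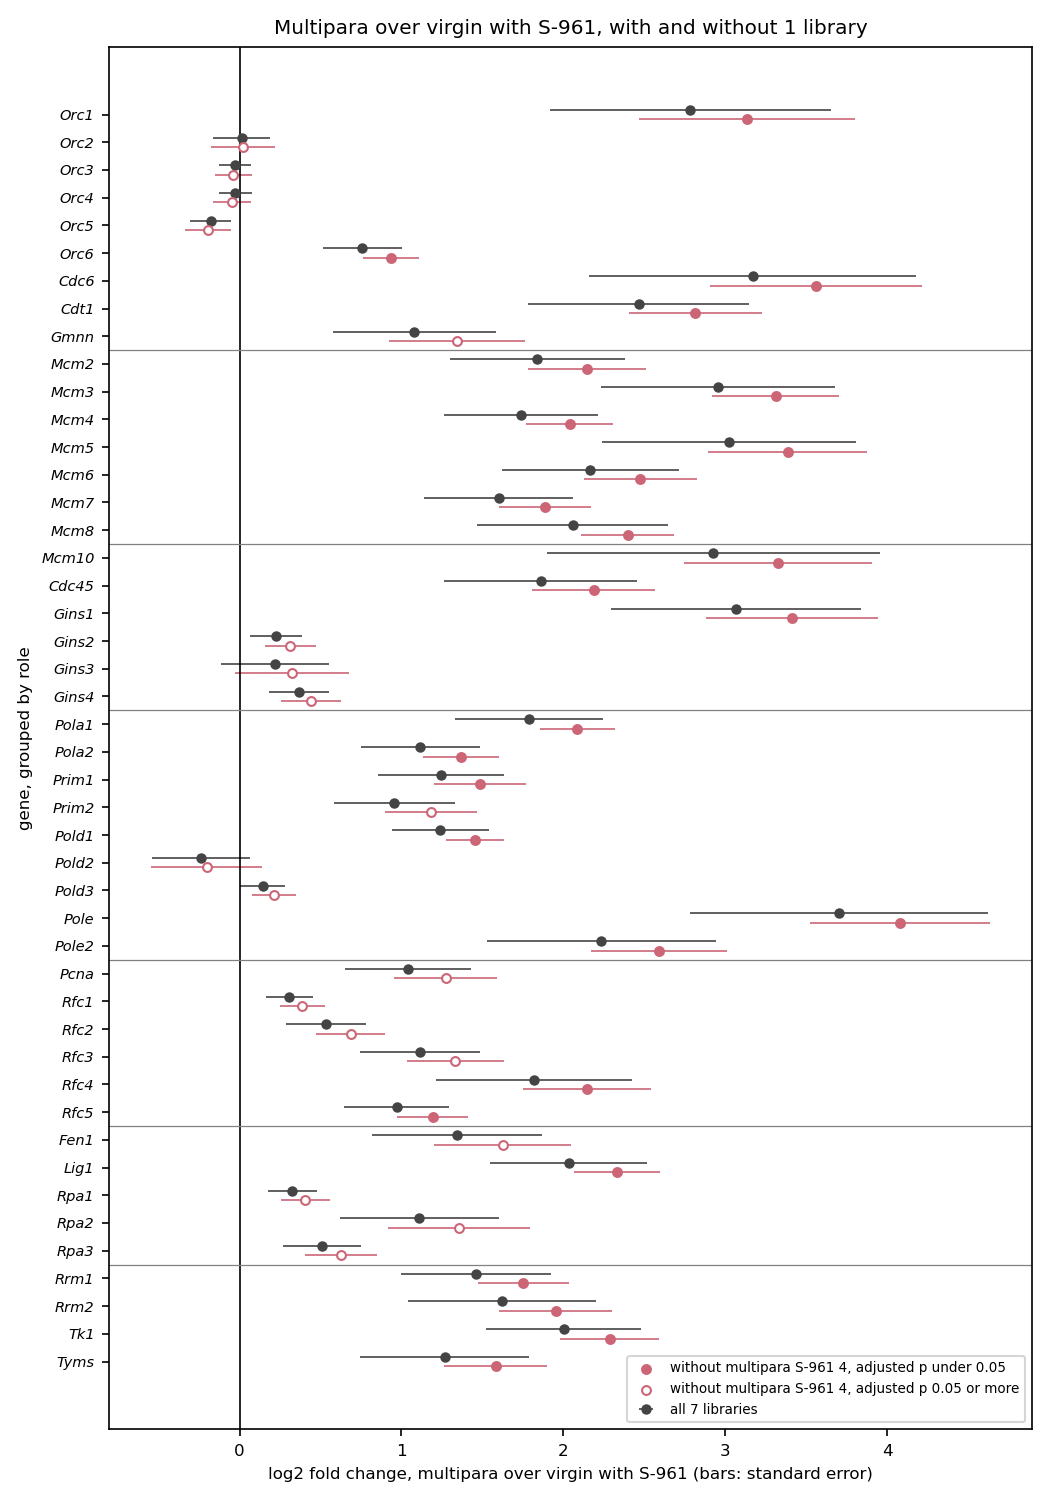
Points give the log2 fold change between parities with S-961 (multipara over virgin) for each gene, with its standard error, from all 7 libraries (grey) and without multipara S-961 4 (red, filled where the adjusted p-value is under 0.05). The MCM genes lie between 1.60 and 3.02 with all libraries and all 7 are filled without the 1 library, while *Orc2* to *Orc5* lie close to 0 in both fits.

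The letters upstream of these genes were read where the reference held them, since E2F sites are a known feature of S phase promoters. RefSeq windows of GRCm38.p6 that reach from 250 bases before to 50 bases after the start site were held for 38 of the 46 genes. An E2F-like word (TTTCCCGC, TTTGGCGC, TTTGCCGC or TTTCGCGC, on either strand, overlaps allowed) was in a window of 16 of these 38 genes (42.1%) and of 2.6% of all genes with a window. The CCAAT word was in 63.2% and 41.1%, and TTTGAA in 13.2% and 20.2%. With S-961 multipara exceeded virgin by a log2 fold change above 1 in 13 of the 16 genes with a word and in 13 of the 22 without. For 4 of these genes a word lay before both the RefSeq start site and the gene as GENCODE draws it. The stretches below show that word in capitals, with bases on both sides, each written along the strand of its gene and in order of the fold change.
*Mcm5* (chr8:75109326-75109393, plus strand): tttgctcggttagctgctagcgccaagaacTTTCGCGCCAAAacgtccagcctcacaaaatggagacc
*Mcm6* (chr1:128359778-128359845, minus strand): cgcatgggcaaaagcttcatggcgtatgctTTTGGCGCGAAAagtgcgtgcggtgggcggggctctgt
*Pola1* (chrX:93632256-93632323, minus strand): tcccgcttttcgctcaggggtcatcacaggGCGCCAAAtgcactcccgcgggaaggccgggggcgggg
*Orc3* (chr4:34614946-34615013, minus strand): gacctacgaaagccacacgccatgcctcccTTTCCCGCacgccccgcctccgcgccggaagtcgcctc
The capitals of *Mcm5* and *Mcm6* each hold a pair of overlapping words, one from TTTCGCGC and one from TTTGGCGC on opposite strands, and *Pola1* carries TTTGGCGC on the other strand. The difference between parities with S-961, on the log2 scale, was 3.02 for *Mcm5*, 2.16 for *Mcm6*, 1.79 for *Pola1* and -0.03 for *Orc3*. *Gins3*, with a log2 fold change of 0.22, also had a word in its window. A match in these windows is a string of letters and says nothing on which factor binds it in islets.

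Among the licensing genes, *Cdc6*, *Cdt1*, *Orc1* and *Orc6* were the 4 that rose when multipara S-961 4 was left out. Cdc6 is the ATPase that recruits the MCM ring to the origin. *Cdc6* (ENSMUSG00000017499, chr11:98907801-98923940, plus strand) was at 0.682, 2.12 and 0.597 CPM in virgin and 15.9, 19.7, 4.47 and 0.654 CPM in multipara libraries with S-961. Without treatment it was at 0.341 and 0.201 CPM in virgin and 2.295 and 0.246 CPM in multipara libraries. Multipara S-961 1 and 2 were the highest libraries and multipara S-961 4 lay among the virgin ones, and the log2 fold change was 3.17 (SE 1.01, edgeR adjusted p = 0.364) with all 7 libraries and 3.56 (SE 0.65, edgeR adjusted p = 0.0275) without multipara S-961 4. *Cdt1* (ENSMUSG00000006585, chr8:122568015-122573554, plus strand), whose product loads the ring together with Cdc6, was at 1.67, 1.36 and 1.59 CPM in virgin and 13.1, 14.7, 4.63 and 1.52 CPM in multipara libraries with S-961. Without treatment it was at 1.14 and 0.805 CPM in virgin and 4.33 and 1.05 CPM in multipara libraries. The value on the log2 scale was 2.47 (SE 0.68, edgeR adjusted p = 0.315), and 2.81 (SE 0.41, edgeR adjusted p = 0.0108) without multipara S-961 4. *Cdt1* shares its strand and place with Gm20388, and its values were whole in all 11 libraries.

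Geminin, encoded by *Gmnn*, binds Cdt1 and prevents a second round of loading. *Gmnn* was at 2.82, 2.93 and 3.72 CPM in virgin and 5.26, 14.03, 4.58 and 2.64 CPM in multipara libraries with S-961, and at 4.36 and 3.58 CPM and 6.89 and 4.8 CPM without treatment. Its log2 fold change with S-961 was 1.08 (SE 0.50, edgeR adjusted p = 0.535). Per kilobase of exon, the level of *Cdt1* over that of *Gmnn* was 0.322, 0.252 and 0.233 in virgin S-961 libraries and 1.35, 0.570, 0.549 and 0.311 in multipara S-961 libraries. Without treatment this ratio was 0.142 and 0.122 in virgin and 0.342 and 0.118 in multipara libraries. The RNA level of *Gmnn* per kilobase therefore exceeded that of *Cdt1* in 10 of the 11 libraries, and multipara S-961 1 was the exception. These ratios describe RNA, not protein.

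*Orc1* encodes the subunit of the origin recognition complex whose level changes with the cell cycle, and it stood apart from the other subunits. *Orc1* was at 0.248, 0.332 and 0.0332 CPM in virgin and 1.79, 2.62, 1.07 and 0.238 CPM in multipara libraries with S-961. These levels rest on few reads, with 8, 11 and 1 counts in virgin and 65, 88, 42 and 8 in multipara libraries. The log2 fold change came to 2.78 (SE 0.87, edgeR adjusted p = 0.3598), and 3.13 (SE 0.67, edgeR adjusted p = 0.0483) without multipara S-961 4. Without treatment, *Orc1* had 1 count in each virgin library and 22 and 1 in multipara libraries. *Orc2*, which encodes a core subunit, was at 32.7, 28.9 and 30.2 CPM in virgin and 34.6, 36.8, 20.7 and 30.3 CPM in multipara libraries with S-961, and at 26.3 and 21.6 CPM and 24.03 and 23.4 CPM without treatment. On the log2 scale the difference was 0.01 (SE 0.17, edgeR adjusted p = 0.9897). *Orc3* gave -0.03 (SE 0.10, edgeR adjusted p = 0.951) and *Orc5* gave -0.18 (SE 0.13, edgeR adjusted p = 0.689), and the groups overlapped for all of *Orc2*, *Orc3*, *Orc4* and *Orc5*. *Orc6*, the smallest subunit, was at 13.3, 12.9 and 14.5 CPM in virgin and 24.9, 31.99, 20.01 and 13.99 CPM in multipara libraries with S-961. Only multipara S-961 4 lay within the virgin range, and the log2 fold change was 0.76 (SE 0.25, edgeR adjusted p = 0.364), and 0.94 (SE 0.17, edgeR adjusted p = 0.0283) without it.

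All 7 MCM genes had positive values. Mcm2 to Mcm7 form the hexameric ring that unwinds DNA, and Mcm8 acts mainly in recombination repair. With S-961 the difference on the log2 scale ran from 1.60 for *Mcm7* to 3.02 for *Mcm5*, with a median of 2.06, and every gene of the family was higher in multipara S-961 1, 2 and 3 than in any virgin S-961 library. *Mcm5* (ENSMUSG00000005410, chr8:75109569-75128439, plus strand) was at 3.56, 3.54 and 1.39 CPM in virgin and 32.7, 42.8, 12.97 and 3.21 CPM in multipara libraries. Its log2 fold change was 3.02 (SE 0.79, edgeR adjusted p = 0.315), and 3.38 (SE 0.49, edgeR adjusted p = 0.0105) without multipara S-961 4, which lay within the virgin range. *Mcm3* (ENSMUSG00000041859, chr1:20802968-20820312, minus strand) was at 2.32, 2.69 and 1.59 CPM in virgin and 26.6, 28.4, 10.3 and 2.58 CPM in multipara libraries. The value on the log2 scale was 2.95 (SE 0.72, edgeR adjusted p = 0.315), and 3.31 (SE 0.39, edgeR adjusted p = 0.00572) without that library. *Mcm7*, which holds the microRNA genes Mir25, Mir93 and Mir106b in its introns, had the smallest difference of the family. It was at 9.89, 11.9 and 9.55 CPM in virgin and 40.8, 52.5, 21.6 and 10.7 CPM in multipara libraries, with a log2 fold change of 1.60 (SE 0.46, edgeR adjusted p = 0.324), and 1.89 (SE 0.29, edgeR adjusted p = 0.01303) without multipara S-961 4. *Mcm2*, *Mcm4*, *Mcm6* and *Mcm8* lay between these genes, and all 4 rose when that library was left out.

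**Figure D3:**
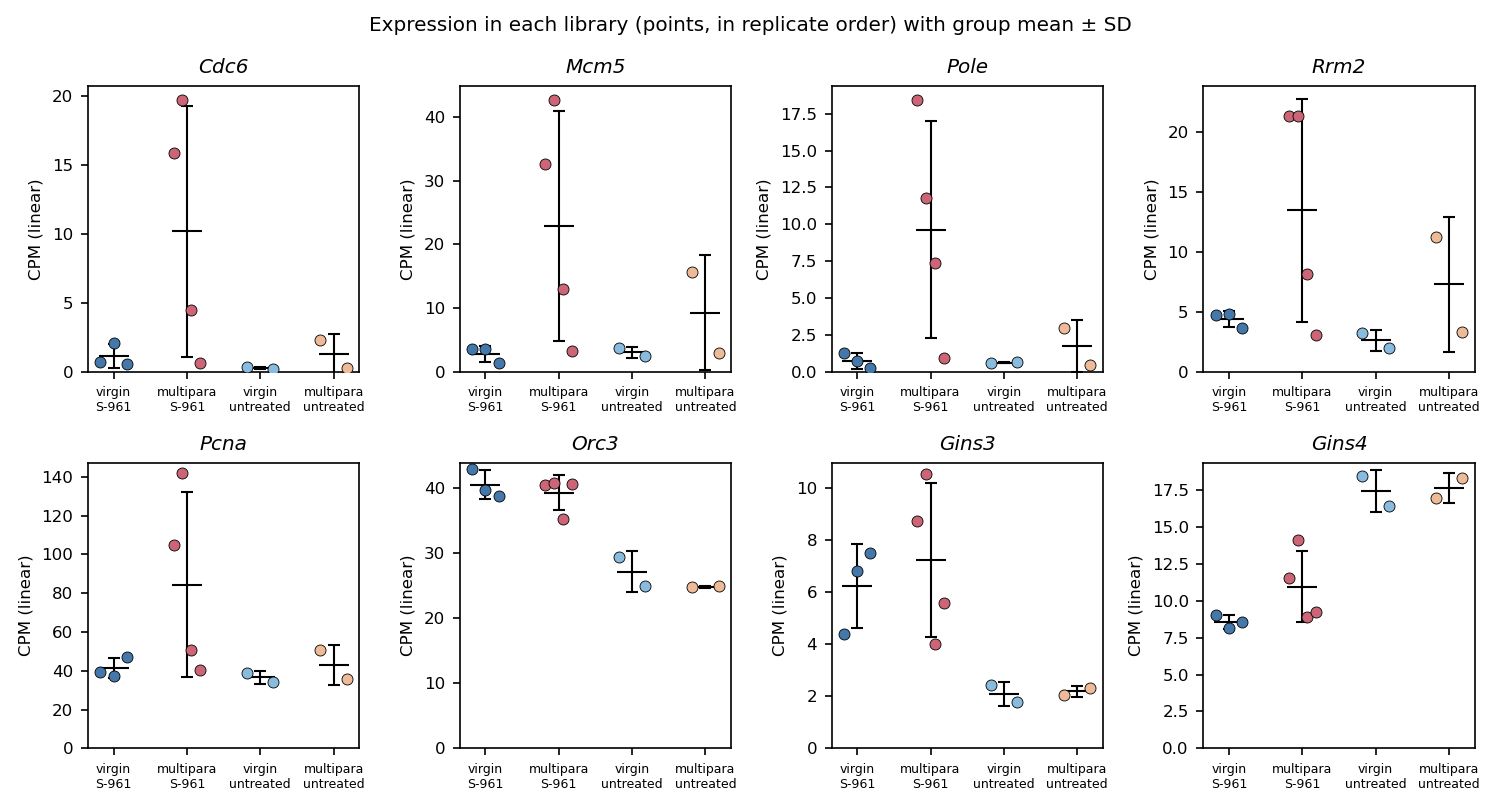
Points are the CPM of single libraries in the 4 groups, and the line and bar give the group mean ± SD (n = 3, 4, 2 and 2, with bars that would pass below 0 cut at the axis). *Cdc6*, *Mcm5*, *Pole* and *Rrm2* are raised in multipara S-961 1 to 3 but not 4. *Pcna* is raised in multipara S-961 1 and 2 and only just above the virgin S-961 libraries in multipara S-961 3. *Orc3* and *Gins3* are higher and *Gins4* lower with S-961 in both parities.

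The helicase activation genes fell into those with large and those with small differences. Mcm10 and Cdc45 help to start the ring, and the 4 GINS subunits, Gins1 to Gins4, complete the helicase. *Mcm10* was at 0.3099, 1.03 and 1.06 CPM in virgin and 10.1, 10.8, 3.13 and 0.238 CPM in multipara libraries with S-961. The log2 fold change came to 2.92 (SE 1.03, edgeR adjusted p = 0.391), and 3.33 (SE 0.58, edgeR adjusted p = 0.0224) without multipara S-961 4, which had the lowest level of all 11 libraries. *Cdc45* followed the same order and rose in the latter fit. *Gins1* (ENSMUSG00000027454, chr2:150905400-150931280, plus strand) was at 0.248, 0.242 and 0.332 CPM in virgin and 3.44, 4.2, 1.14 and 0.416 CPM in multipara libraries, and here multipara S-961 4 also exceeded all virgin libraries. On the log2 scale the difference was 3.06 (SE 0.77, edgeR adjusted p = 0.315), and 3.41 (SE 0.53, edgeR adjusted p = 0.0145) without that library. The other GINS genes differed far less between parities. The log2 fold change with S-961 was 0.23 (SE 0.16, edgeR adjusted p = 0.696) for *Gins2*. It was 0.22 (SE 0.33, edgeR adjusted p = 0.863) for *Gins3* and 0.37 (SE 0.18, edgeR adjusted p = 0.567) for *Gins4*. None of these 3 rose when multipara S-961 4 was left out.

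Among the polymerases, the catalytic subunit of polymerase ε had the largest difference of all 46 genes, and the accessory subunits of polymerase δ had the smallest of the class. Polymerase ε copies the leading strand. *Pole* (ENSMUSG00000007080, chr5:110286306-110337474, plus strand) was at 1.27, 0.725 and 0.232 CPM in virgin and 18.5, 11.8, 7.37 and 0.951 CPM in multipara libraries with S-961. Its log2 fold change was 3.70 (SE 0.92, edgeR adjusted p = 0.315), and 4.08 (SE 0.56, edgeR adjusted p = 0.00892) without multipara S-961 4. *Pole2*, its second subunit, was at 0.775, 0.393 and 0.531 CPM in virgin and 4.35, 3.93, 1.91 and 0.416 CPM in multipara libraries, with a log2 fold change of 2.23 (SE 0.71, edgeR adjusted p = 0.362), and 2.59 (SE 0.42, edgeR adjusted p = 0.0162) without that library. For both genes multipara S-961 4 lay within the virgin range and the other 3 multipara libraries above it. *Pola1* encodes the catalytic subunit of polymerase α, which extends the RNA primers made by primase. It was at 4.18, 4.56 and 3.28 CPM in virgin and 19.5, 19.2, 11.8 and 4.397 CPM in multipara libraries, with a log2 fold change of 1.79 (SE 0.46, edgeR adjusted p = 0.315), and 2.08 (SE 0.23, edgeR adjusted p = 0.00473) without that library. *Pola2*, the primase subunit gene *Prim1* and the polymerase δ catalytic gene *Pold1* also rose in the latter fit, and *Prim2* did not pass the test. *Pold3*, an accessory subunit of polymerase δ, was at 22.9, 23.4 and 27.1 CPM in virgin and 30.8, 29.2, 23.9 and 23.1 CPM in multipara libraries. The value on the log2 scale was 0.14 (SE 0.14, edgeR adjusted p = 0.776), and *Pold2* had the lowest value of all 46 genes at -0.24. Neither passed the test without multipara S-961 4.

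The sliding clamp gene was well above the virgin level in a pair of libraries. Pcna encircles DNA and holds the polymerases in place, and the replication factor C subunits Rfc1 to Rfc5 load it. *Pcna* (ENSMUSG00000027342, chr2:132249162-132253314, minus strand) was at 39.4, 37.3 and 47.3 CPM in virgin and 105, 142, 50.6 and 40.5 CPM in multipara libraries with S-961. Multipara S-961 3 was only just above the highest virgin library. The log2 fold change came to 1.04 (SE 0.39, edgeR adjusted p = 0.435), and 1.27 (SE 0.32, edgeR adjusted p = 0.07999) without multipara S-961 4. *Rfc4* was at 1.705, 1.99 and 1.86 CPM in virgin and 8.26, 12.5, 3.76 and 1.52 CPM in multipara libraries, with a log2 fold change of 1.82 (SE 0.61, edgeR adjusted p = 0.369), and 2.14 (SE 0.40, edgeR adjusted p = 0.0279) without that library. *Rfc3* was at 4.28, 4.62 and 3.81 CPM in virgin and 11.6, 14.3, 5.95 and 4.72 CPM in multipara libraries, and all 4 multipara libraries exceeded the virgin ones. On the log2 scale the difference was 1.12 (SE 0.37, edgeR adjusted p = 0.369), and 1.33 (SE 0.30, edgeR adjusted p = 0.0579) without multipara S-961 4. *Rfc1*, the large subunit, which is the only one outside the core of 4 small subunits, was at 29.97, 28.6 and 25.7 CPM in virgin and 40.4, 38.6, 29.8 and 28.7 CPM in multipara libraries, with a log2 fold change of 0.31 (SE 0.15, edgeR adjusted p = 0.543). *Rfc4* and *Rfc5* were the 2 genes of this class under 0.05 in the fit without multipara S-961 4, which was left out after its values were seen. *Rfc2* was not under 0.05.

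The enzymes that finish the lagging strand differed to unequal extents. Fen1 removes the flap at the 5′ end of an Okazaki fragment and Lig1 seals the nick. *Lig1* (ENSMUSG00000056394, chr7:13277283-13311433, plus strand) was at 5.05, 5.62 and 5.04 CPM in virgin and 29.1, 33.7, 15.6 and 6.54 CPM in multipara libraries with S-961. Its log2 fold change was 2.03 (SE 0.48, edgeR adjusted p = 0.315), and 2.33 (SE 0.26, edgeR adjusted p = 0.004797) without multipara S-961 4, and it was the gene of this class that rose. *Fen1* was at 10.5, 12.1 and 13.7 CPM in virgin and 40.2, 57.2, 14.01 and 10.7 CPM in multipara libraries. Multipara S-961 1 and 2 were high and multipara S-961 3 was close to the virgin libraries, and the log2 fold change was 1.34 (SE 0.53, edgeR adjusted p = 0.459), and 1.62 (SE 0.42, edgeR adjusted p = 0.0908) without multipara S-961 4. *Fen1* overlaps Tmem258 on the other strand. Replication protein A covers single-stranded DNA in replication and repair. *Rpa1*, its large subunit, was at 73.7, 73.8 and 75.5 CPM in virgin and 103, 113, 75.8 and 77.3 CPM in multipara libraries. The groups did not overlap, but the log2 fold change was only 0.33 (SE 0.15, edgeR adjusted p = 0.5402). *Rpa3*, the smallest subunit, was at 4.06, 4.65 and 5.61 CPM in virgin and 6.44, 9.08, 6.28 and 5.05 CPM in multipara libraries, with a log2 fold change of 0.51 (SE 0.24, edgeR adjusted p = 0.5403). *Rpa2* was at 6.36 CPM in multipara S-961 3, below all virgin S-961 libraries, and at 28.1 CPM in multipara S-961 2.

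All 4 nucleotide supply genes followed the MCM genes. Ribonucleotide reductase turns ribonucleotides into deoxynucleotides, with Rrm1 as the large and Rrm2 as the small subunit, the latter present mainly in S phase. *Rrm1* was at 16.6, 15.7 and 15.99 CPM in virgin and 60.3, 71.6, 29.5 and 14.3 CPM in multipara libraries with S-961. *Rrm2* (ENSMUSG00000020649, chr12:24708241-24714146, plus strand) was at 4.77, 4.83 and 3.62 CPM in virgin and 21.3, 21.3, 8.16 and 3.06 CPM in multipara libraries. Both were lowest in multipara S-961 4 among the 7 libraries. The value on the log2 scale was 1.46 (SE 0.46, edgeR adjusted p = 0.362) for *Rrm1* and 1.62 (SE 0.58, edgeR adjusted p = 0.40) for *Rrm2*. Without that library the values were 1.75 (SE 0.28, edgeR adjusted p = 0.0152) and 1.95 (SE 0.35, edgeR adjusted p = 0.0239). Per kilobase of exon, *Rrm2* stood at 0.5256, 0.5597 and 0.412 of *Rrm1* in virgin S-961 libraries and at 0.645, 0.543, 0.504 and 0.391 in multipara S-961 libraries. Without treatment, this ratio was 0.358 and 0.241 in virgin and 0.830 and 0.389 in multipara libraries, and multipara untreated 1 had the highest ratio of all 11. Thymidine kinase, encoded by *Tk1*, salvages thymidine. *Tk1* was at 1.89, 2.66 and 1.63 CPM in virgin and 10.02, 13.3, 6.58 and 2.85 CPM in multipara libraries, with no overlap between the groups and a log2 fold change of 2.002 (SE 0.48, edgeR adjusted p = 0.315), and 2.29 (SE 0.31, edgeR adjusted p = 0.00853) without multipara S-961 4. *Tyms*, which encodes thymidylate synthase, was at 5.46, 5.11 and 5.34 CPM in virgin and 18.7, 20.6, 7.96 and 3.42 CPM in multipara libraries. Here multipara S-961 4 was the lowest of all 11 libraries. The log2 fold change of *Tyms* was 1.27 (SE 0.52, edgeR adjusted p = 0.482), and 1.58 (SE 0.32, edgeR adjusted p = 0.0385) without it.

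Without treatment, the higher levels of replication genes in multipara mice were those of a single library. Of 44 genes tested (*Orc1* and *Cdc6* did not pass the filter on low counts), edgeR called none, and 0% of all 15812 genes, and DESeq2 called 0 of the 44. Before adjustment, 0 of the 44 were higher at p under 0.05, against 2.52% of all genes. The median log2 fold change was 0.29, against 0.0169 over all genes. Both multipara libraries exceeded both virgin libraries for 8 of the 44 genes, against 13.5% of all genes. Multipara untreated 1 exceeded the other 3 libraries for 34 of the 44, against 24.5% of all genes. *Mcm5* was at 3.71 and 2.46 CPM in virgin and 15.7 and 2.95 CPM in multipara libraries, and its log2 fold change was 1.66 (SE 0.84, edgeR adjusted p = 0.719). *Mcm3* was at 3.68 and 3.42 CPM in virgin and 16.9 and 3.14 CPM in multipara libraries, with a log2 fold change of 1.56 (SE 0.82, edgeR adjusted p = 0.719). *Mcm10* was at 0.606 and 0.483 CPM in virgin and 3.42 and 0.246 CPM in multipara libraries, with a log2 fold change of 1.83 (SE 1.17, edgeR adjusted p = 0.726). In each case multipara untreated 1 was high and multipara untreated 2 lay within or below the virgin range. When multipara untreated 1 was left out the median log2 fold change was -0.02 and these 3 genes turned negative, at -0.06 for *Mcm5*, -0.17 for *Mcm3* and -1.13 for *Mcm10*. With multipara untreated 2 left out instead, the median was 0.66. Each of these fits leaves 1 multipara library, so that only the size of the difference is given. Multipara untreated 1 is the library with the high lymphocyte, macrophage and red cell markers, and *Mki67* was at 37.5 CPM in it and at 6.48, 3.504 and 2.09 CPM in the other 3.

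The interaction, which asks if the difference between parities was larger with S-961 than without, was not called for any gene. Its median was 0.83 for the 46 genes and -0.0359 for the 17996 genes tested, edgeR called none of the 46 and 0% of all genes, and 0 of the 46 passed at an unadjusted p-value under 0.05, while DESeq2 called 0. The largest interaction was 2.41 (SE 1.13, edgeR adjusted p = 0.766) for *Gins1*. *Gins1* was at 0.417 and 0.483 CPM in virgin and 0.866 and 0.492 CPM in multipara libraries without treatment, so that its raised level was seen in multipara S-961 1 to 3. The interaction of *Pole* was 2.14 (SE 1.47, edgeR adjusted p = 0.839), and *Pole* was at 0.606 and 0.644 CPM in virgin and 2.99 and 0.492 CPM in multipara libraries without treatment. For *Rfc4* it was 1.60 (SE 0.93, edgeR adjusted p = 0.799). Without both multipara S-961 4 and multipara untreated 1, the median of the 46 genes was 1.53, a choice of libraries made after their values were seen.

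Few replication genes passed the test for S-961 against no treatment, and those were mainly subunits that differed little between parities. The others are not shown to be unchanged, since the fit took its spread from all 11 libraries. In virgin mice, for example, the fitted value was negative for *Mcm7*, *Mcm6*, *Rfc4*, *Lig1* and *Prim1* and positive for *Pold2*, *Fen1* and *Cdt1*. None of these named genes passed there. The log2 fold change was -1.07 (SE 0.48, edgeR adjusted p = 0.109) for *Mcm7* and 0.82 (SE 0.35, edgeR adjusted p = 0.0863) for *Pold2*. In virgin mice, 8 of the 46 genes had an adjusted p-value under 0.05, against 36.5% of all genes, with 4 higher (*Gins3*, *Orc3*, *Orc4* and *Orc5*) and 4 lower (*Gins4*, *Gins2*, *Orc6* and *Rpa3*). In multipara mice it was also 8, against 37.6% of all genes, with 6 higher (*Fen1*, *Gins3*, *Pola1*, *Orc3*, *Orc5* and *Orc4*) and 2 lower (*Gins4* and *Gins2*). Both shares lay below those of all genes. The median log2 fold change of the 46 genes was -0.04 in virgin and 0.68 in multipara mice, against -0.04 and 0.03 over all genes. These splits depend on the scaling. With library totals in place of TMM, 7 genes were higher and 1 lower in virgin mice, and 22 were higher and 0 lower in multipara mice, while the median of all genes itself moved to 0.43 and 0.61. The medians of the 46 genes were then 0.43 and 1.19. The counts also depend on single libraries. In virgin mice 5, 5, 3 and 1 genes were called without virgin S-961 1, virgin S-961 2, virgin untreated 1 and virgin untreated 2. In multipara mice 4 and 2 were called without multipara untreated 1 and 2, and 22 (20 higher and 2 lower) without multipara S-961 4, against 35.8% of all genes. The acinar genes, all 10 of which were higher with S-961 in both parities, and the fall in the share of insulin transcripts moved with this comparison, and their part was not tested.

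*Orc3* (ENSMUSG00000040044, chr4:34570796-34614944, minus strand), a core subunit of the origin recognition complex, was at 42.9, 39.6 and 38.7 CPM in virgin and 40.3, 40.7, 35.2 and 40.5 CPM in multipara libraries with S-961. Without treatment it was at 29.3 and 24.9 CPM in virgin and 24.7 and 24.9 CPM in multipara libraries. Every S-961 library exceeded every untreated one, and the log2 fold change was 0.55 (SE 0.12, edgeR adjusted p = 0.00469) in virgin and 0.61 (SE 0.11, edgeR adjusted p = 0.00247) in multipara mice. *Orc5*, another core subunit, was at 26.7, 24.9 and 25.6 CPM in virgin and 22, 26.1, 18.4 and 23.5 CPM in multipara libraries with S-961, and at 18.99 and 18.4 CPM and 15.5 and 15.4 CPM without. It rose by 0.44 (SE 0.14, edgeR adjusted p = 0.02996) on the log2 scale in virgin and by 0.49 (SE 0.13, edgeR adjusted p = 0.01601) in multipara mice. *Orc4* gave similar values in both parities, with every S-961 library (31.0 to 35.7 CPM) above every untreated one (23.1 to 24.1 CPM). *Orc6* was at 21.6 and 23.04 CPM in virgin and 23.6 and 27.6 CPM in multipara libraries without treatment, above all virgin S-961 libraries. It fell with S-961 in virgin mice, with a log2 fold change of -0.74 (SE 0.26, edgeR adjusted p = 0.04396). In multipara mice the value was -0.23 (SE 0.24, edgeR adjusted p = 0.485) and turned positive, to 0.35, with library totals in place of TMM.

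Within the GINS complex, the third subunit moved opposite to the second and the fourth. *Gins3* (ENSMUSG00000031669, chr8:95633453-95645060, plus strand) was at 4.401, 6.83 and 7.497 CPM in virgin and 8.76, 10.5, 4.02 and 5.58 CPM in multipara libraries with S-961, and at 2.43 and 1.77 CPM and 2.04 and 2.34 CPM without treatment. It rose in both parities, with a log2 fold change of 1.55 (SE 0.41, edgeR adjusted p = 0.0137) in virgin and 1.67 (SE 0.40, edgeR adjusted p = 0.00887) in multipara mice. *Gins4* (ENSMUSG00000031546, chr8:23226616-23237659, minus strand) was at 9.05, 8.13 and 8.56 CPM in virgin and 11.5, 14.1, 8.898 and 9.27 CPM in multipara libraries with S-961, and at 18.4 and 16.4 CPM and 16.9 and 18.3 CPM without. It fell, with values of -1.04 (SE 0.19, edgeR adjusted p = 0.00186) and -0.74 (SE 0.18, edgeR adjusted p = 0.00792). *Gins2* was at 36.7, 40.9 and 48.3 CPM in virgin and 48.3, 60.97, 45.1 and 39.7 CPM in multipara libraries with S-961, and at 68 and 76.7 CPM and 70.2 and 77.6 CPM without. Its values were -0.81 (SE 0.17, edgeR adjusted p = 0.00412) and -0.66 (SE 0.16, edgeR adjusted p = 0.00866). With library totals in place of TMM both genes stayed negative, at -0.58 and -0.17 for *Gins4* and -0.34 and -0.08 for *Gins2* in virgin and multipara mice, and only *Gins4* in virgin mice still passed the test. The ratio of *Gins3* to *Gins4* per kilobase of exon does not depend on the scaling. It was 0.242, 0.418 and 0.436 in virgin and 0.379, 0.372, 0.225 and 0.3001 in multipara libraries with S-961, and 0.0656, 0.0537, 0.0599 and 0.0635 in the 4 untreated libraries. The groups with and without S-961 did not overlap in this ratio. *Gins2* overlaps Gse1 and Gm20388 on the other strand and had values that were not whole in all 11 libraries, so that its level is less certain.

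The remaining called genes passed the test in 1 parity. *Fen1* was at 4.55 and 6.12 CPM in virgin and 8.83 and 4.8 CPM in multipara libraries without treatment, below all S-961 libraries of both parities. The log2 fold change came to 2.09 (SE 0.62, edgeR adjusted p = 0.0232) in multipara and 1.16 (SE 0.62, edgeR adjusted p = 0.172) in virgin mice, and it passed the test in the former. *Pola1* was at 3.56 and 3.54 CPM in virgin and 5.85 and 3.26 CPM in multipara libraries without treatment. Its values were 1.53 (SE 0.51, edgeR adjusted p = 0.03805) in multipara and 0.16 (SE 0.51, edgeR adjusted p = 0.838) in virgin mice. *Rpa3* was at 8.26 and 7.13 CPM in virgin and 8.36 and 8.12 CPM in multipara libraries without treatment. It gave -0.71 (SE 0.25, edgeR adjusted p = 0.04296) in virgin mice and -0.35 (SE 0.23, edgeR adjusted p = 0.258) in multipara mice, the latter turning to 0.22 with library totals. None of the differences between these effects was called, as stated above for the interaction. The multipara values draw on the same S-961 libraries as the comparison of both parities.

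**Figure D4:**
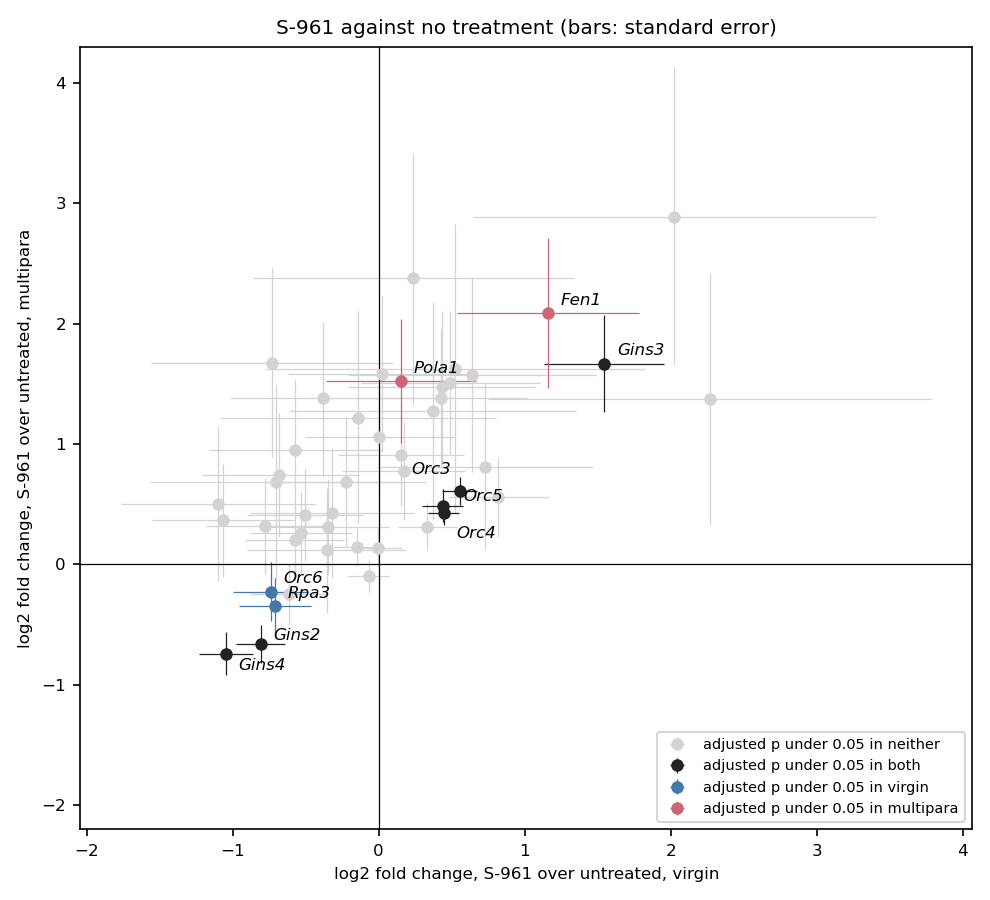
Each point is a gene, with the log2 fold change of S-961 over untreated in virgin mice on the x axis and in multipara mice on the y axis, and bars are standard errors. *Gins3* and *Orc3* to *Orc5* lie above 0 and *Gins2* and *Gins4* below 0 on both axes, with the TMM scaling, while *Fen1* and *Pola1* passed the test in multipara mice.

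The subunits of MCM, GINS and replication factor C were expressed at more equal levels in multipara S-961 1 to 3 than in virgin S-961 libraries. Levels between genes are compared per kilobase of exon. In the MCM ring of Mcm2 to Mcm7, the highest over the lowest subunit was 4.35, 4.52 and 8.003 in virgin S-961 libraries and 1.67, 1.89, 2.14 and 4.23 in multipara S-961 libraries. Without treatment it was 6.94 and 9.99 in virgin and 2.45 and 7.66 in multipara libraries. *Mcm7* was the highest subunit in 10 of the 11 libraries, at 3.22 to 17.7 CPM per kb, and *Mcm3*, *Mcm4* or *Mcm5* was the lowest. In GINS the ratio was 41.3, 47.1 and 40.6 in virgin and 3.91, 4.05, 10.98 and 26.6 in multipara libraries with S-961, and 45.5, 44.2, 24.0 and 43.9 in the 4 untreated libraries. *Gins2* was the highest subunit throughout, and *Gins1* was the lowest except in multipara untreated 1, where *Gins3* was. In replication factor C the ratio was 4.79, 3.91 and 3.77 in virgin and 1.58, 1.85, 2.16 and 5.16 in multipara libraries with S-961, where multipara S-961 4 exceeded all virgin ones. Without treatment it was 2.06 and 2.71 in virgin and 2.21 and 3.45 in multipara libraries, so that virgin untreated libraries were more even than virgin S-961 ones. In the origin recognition complex *Orc1* was the lowest subunit in every library, at 0.0110 to 0.870 CPM per kb, against 4.90 CPM per kb or more for the others. Replication protein A did not follow, since its ratio in multipara S-961 3 was 4.21, above the 3.504 to 3.86 of virgin S-961 libraries. These ratios use the union of annotated exons as the length of a gene and are a description of RNA, not of protein.

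**Figure D5:**
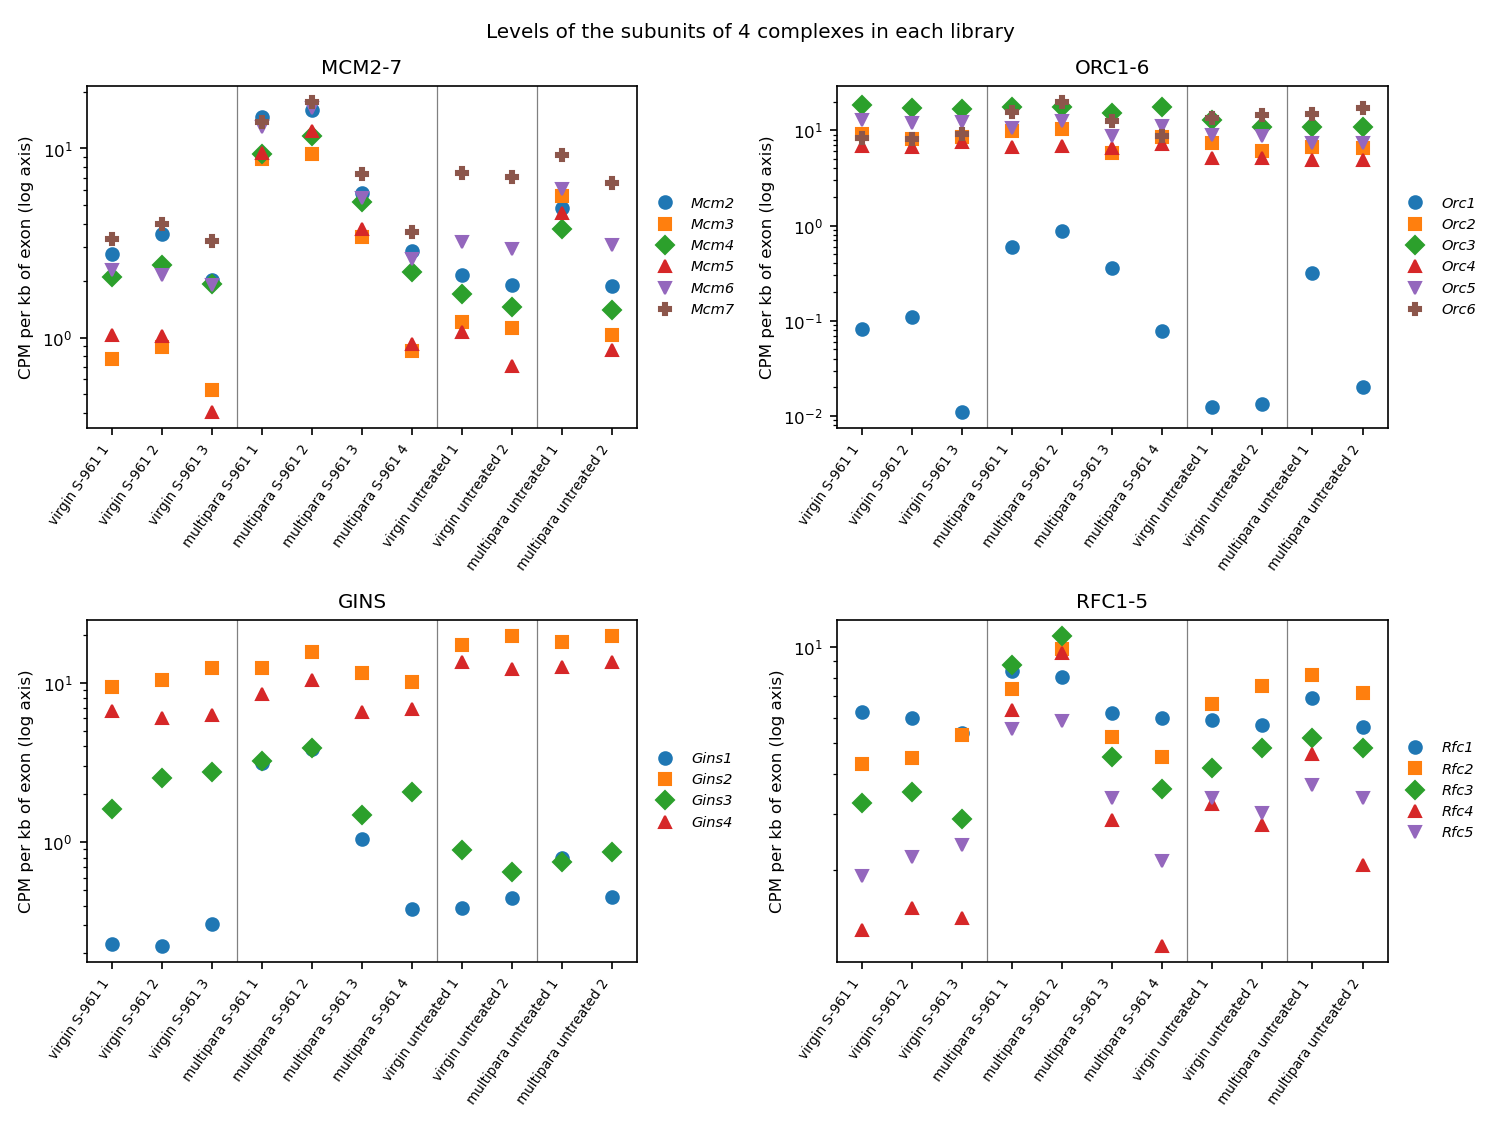
Points give the level of each subunit per kilobase of exon on a log axis in each of the 11 libraries, in 4 panels for the MCM ring, the origin recognition complex, GINS and replication factor C. The MCM and GINS subunits lie closest together in multipara S-961 1 and 2, and *Orc1* lies far below the other subunits in every library.

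Other genes of replication gave a shift with the same sign, and those of folate, purine and pyrimidine synthesis did not. Of 47 such genes, which include checkpoint mediators, chromatin assembly factors and enzymes of folate and purine synthesis, 34 were positive for multipara over virgin with S-961, with a median log2 fold change of 0.70. None was called, and 24 were higher at an unadjusted p-value under 0.05, against 8.03% of all genes. The list is mixed. Its 9 genes of folate, purine and pyrimidine synthesis, split off after their values were seen, had 3 positive and 6 negative values with a median of -0.05, from -0.39 for *Cad*, which starts pyrimidine synthesis, to 1.21 for *Shmt1*, which supplies folate-bound carbon units. The other 38 had 31 positive values and a median of 0.88. The largest values belonged to *Clspn* (4.39), which encodes the checkpoint mediator claspin, *Exo1* (4.22), an exonuclease, *Ticrr* (3.77), a regulator of replication start, *Asf1b* (3.36), a histone chaperone, and *Dscc1* (3.32) and *Chtf18* (2.80), subunits of an alternative clamp loader. Without treatment 36 of 44 tested were positive and none was called, with a median of 0.17. For S-961 over untreated, 3 were higher and 5 lower in virgin mice, and 7 were higher and 5 lower in multipara mice, among 47 tested and against 36.5% and 37.6% of all genes called in either direction.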

How the data were processed

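RNA of 11 islet libraries was read by the submitters with a TruSeq Stranded mRNA kit, and their processing notes name STAR, RSEM and the builds GRCm38 and mm10, while versions, annotation and the strand setting are not given in the sources used here. The authors deposited 1 table per library of estimated counts (expected counts) per gene, without normalization. Between 4449 and 5162 genes per library were not whole, as were 12 of the 46 members in at least 1 library and 7 in all 11, where reads shared with other genes had been divided. Of 55536 genes, 55450 had the identifier and symbol of GENCODE M21, which gave coordinates and exon lengths, and 12 members overlap a gene on the same strand and 18 on the other.

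Counts were rounded and tested with edgeR 4.0.16 in R 4.3.3 (TMM, filterByExpr with a minimum count of 10 and a minimum total of 15, quasi-likelihood F-test, Benjamini-Hochberg adjustment over all genes tested, threshold 0.05). Each comparison of multipara with virgin used its own libraries only, and the interaction and the comparisons of S-961 with no treatment used all 11. Log2 CPM used a prior count of 2. The standard error is the log2 fold change divided by the square root of F. Depth was 22028507 to 32234146 counts per library, so that the spread between libraries limits all but the lowest genes. Libraries of the same group differed by more than sampling noise, and each was counted as 1 sample. The fits were tested on simulated data. DESeq2 1.42.0, median-of-ratios size factors, library totals, no filter, a replicate block, a joint fit and each library left out were the alternatives.

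The 46 genes and all lists were chosen with earlier results of these data known. Values in every library are given for members called in any comparison (at most 3 per role), the 2 largest and the 1 smallest absolute fold change per role with S-961, and Cdt1, Gmnn, Rrm1, Rrm2, Tk1, Tyms and Pcna. Stretches of promoter are those of members with an E2F-like word before both start sites. Replicate numbers were not used as pairs. Same-numbered S-961 libraries had correlations of 0.0780, 0.00171 and 0.0869 in their deviations from the group means, and differently numbered ones -0.113 to 0.0751. Without treatment the values were 0.334 and -0.334, where 2 libraries per group fix them to the same size. These values do not settle if the numbers pair the libraries. Annotation and figures used pandas 2.3.3 with numpy 2.4.6, and matplotlib 3.10.9, under Python 3.11.15.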

Additional observations from a re-analysis of the deposited data

Results flagged for a closer look

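One value was flagged for a sample far from the others of its group. Among the 4 multipara S-961 libraries, *Orc3* was at 40.3, 40.7, 35.2 and 40.5 CPM, and the gap between multipara S-961 3 and the nearest library took 0.931 of the whole range on the log2 scale. It was 1 of 53 values tested in this way, and chance flags about 1 in 20.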

How the results depend on the processing

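For multipara over virgin with S-961, the count of called genes moved from 0 to 18 with DESeq2, to 23 with a replicate block, and ranged from 0 to 27 when 1 library was left out, where 27 came without multipara S-961 4. The replicate numbers are not known to pair the libraries, and the replicate block also removes multipara S-961 4 from the contrast, since no virgin library has number 4. Without treatment the count ranged from 0 to 19 when 1 library was left out, with a lone library assumed to vary like the others. The interaction gave 0 calls in every alternative run, and its median moved to 1.53 without both multipara S-961 4 and multipara untreated 1, a setting chosen after seeing the data. For S-961 over untreated, the count in virgin mice ranged from 1 to 10 when 1 library was left out. In multipara mice it was 14 with DESeq2, 22 with library totals in place of TMM, 15 with no filter on low counts, 24 with the replicate block and 22 without both libraries, where the median was 1.42, and it ranged from 2 to 22 when 1 library was left out. Values near 0 changed sign. *Orc2* with S-961 was -0.00327 with DESeq2, -0.00328 with median-of-ratios size factors, -0.000603 with no filter, -0.0122 with the replicate block and -0.00112 with all 11 libraries in 1 fit, and ranged from -0.0777 to 0.15 when 1 library was left out. *Orc3* was 0.0271 with library totals and ranged from -0.0663 to 0.0135 when 1 library was left out, and *Gins3* ranged from -0.00761 to 0.41. Without treatment, *Mcm10*, *Mcm5* and *Mcm3* ranged from -1.13, -0.0601 and -0.17 to 2.69, 2.39 and 2.30. With library totals, *Orc6* and *Rpa3* turned to 0.35 and 0.22 in multipara mice. Over the single-gene results in all settings, 706 values kept direction and side of the threshold, 49 now passed it, 51 no longer did and 18 changed sign. The counts of called genes and the medians given above are not part of this tally. The cause of these changes was not tested. With 2 to 4 libraries per group, and a low gene such as *Orc1* at 1 count in 4 libraries, small differences were not detectable.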
